A study of Mus musculus with 2 samples.

Results

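Trib3 and 9 other genes of the ATF4 stress response were followed on 2 Affymetrix arrays, 1 of c-Maf KO and 1 of wild-type fetal liver macrophages. The genes were Trib3, Atf4, Atf5, Ddit3, Asns, Chac1, Sesn2, Psat1, Phgdh and Eif2ak3. They are 10 of the 18193 genes with a probe set of their own. Every probe set annotated with only one gene, that gene being one of these 10, was taken, which gave 22 of the 45101 probe sets in the series. The set was chosen by the KO over wild-type ratio of Trib3 on these arrays, 1 of whose probe sets was among the largest rises, together with known genes of the pathway; the values below are therefore a description. The KO sample came from c-Maf-/- embryos and the other from c-Maf+/+ embryos, both of the C57BL/6J strain at the embryonic stage E15.5, and neither received a treatment. Cells bearing both Mac-1 and F4/80 were sorted from the fetal liver, and the labels do not say how many embryos were pooled for an array. c-Maf belongs to the basic leucine zipper transcription factors and acts in macrophages, and the design asked which genes are lower without it. With 1 array per genotype there is no replicate check and no test, and the number of arrays limits the precision.

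ATF4 is the common output of the integrated stress response. Kinases that sense unfolded protein in the endoplasmic reticulum, amino acid shortage, heme shortage or double-stranded RNA phosphorylate the translation factor eIF2, which lowers protein synthesis as a whole and raises translation of the Atf4 message. ATF4, a bZIP factor, then pairs with C/EBP proteins on composite sites and induces genes of amino acid supply, redox balance and cell death, among them Trib3, whose pseudokinase product binds ATF4 and the kinase AKT and dampens the response. Because ATF4 is controlled largely by translation, the level of its own message is only part of its activity.

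The promoters of Trib3, Asns and Chac1 are shown because they were the only ones of the 10 genes with the 8-base motif TGATGNAA, the core of the composite C/EBP-ATF site, on either strand (read as TTNCATCA on the opposite one) in the RefSeq window of 250 bases before to 50 bases after the gene start (GRCm38.p6). The 3 sequences run 5′ to 3′ in the direction of transcription and end 30 bases after the start, with the motif in capitals. They lie at chr2:152344031-152344310 on the minus strand for Trib3, at chr6:7693180-7693459 on the minus strand for Asns and at chr2:119350992-119351271 on the plus strand for Chac1.
Trib3: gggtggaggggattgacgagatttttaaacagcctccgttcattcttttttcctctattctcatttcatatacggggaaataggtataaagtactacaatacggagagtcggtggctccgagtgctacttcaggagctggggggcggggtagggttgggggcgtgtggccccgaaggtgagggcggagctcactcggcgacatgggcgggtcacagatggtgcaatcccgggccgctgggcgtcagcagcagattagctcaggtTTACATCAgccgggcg
Asns: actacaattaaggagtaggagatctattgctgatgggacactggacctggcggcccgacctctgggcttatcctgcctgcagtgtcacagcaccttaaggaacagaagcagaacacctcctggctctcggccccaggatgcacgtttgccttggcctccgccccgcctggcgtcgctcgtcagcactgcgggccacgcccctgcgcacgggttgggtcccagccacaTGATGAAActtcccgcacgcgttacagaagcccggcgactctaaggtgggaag
Chac1: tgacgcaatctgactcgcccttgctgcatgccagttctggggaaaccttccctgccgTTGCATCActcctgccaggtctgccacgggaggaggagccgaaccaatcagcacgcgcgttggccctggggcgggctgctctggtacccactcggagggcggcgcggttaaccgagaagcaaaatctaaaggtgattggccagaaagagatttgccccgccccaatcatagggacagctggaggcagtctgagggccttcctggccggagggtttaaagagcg
The motif began 15 bases after the start in Trib3, 23 bases before it in Asns and 193 bases before it in Chac1. Over all 32851 windows of the same length, 3.97% held it. A match of letters is no evidence of binding, and its absence from the windows of the other 7 genes says only that these letters are not there.

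Signals are linear intensities per probe set as deposited. The KO array was dimmer as a whole, with a median of 2.98 against 4.73 on the wild-type array. The median deposited log2 ratio of KO over wild type was -0.72 over 23013 measured probe sets, so each gene is also given a level-adjusted ratio, the log2 ratio once quantile normalization has brought both arrays to 1 common distribution. Values under a floor at the median of all values (3.70 as deposited, 3.85 level-adjusted) were raised to it. A probe set was called measured if at least 1 array reached the floor, and one with a single array below it has only a bound. Statements of higher or lower go by the level-adjusted ratio, except where deposited values are named, and a gene with a positive ratio but a smaller deposited signal in KO turned direction with the scale. The scale left a dependence on brightness among probe sets above the deposited floor on both arrays. Their bin medians ran between 0.48 in the dimmest and -0.13 in the brightest of 5 signal bins, so dim ones of this kind tend to appear higher. Over all measured probe sets, bounds included, the median was 0.02 under 4 times the level-adjusted floor and -0.0008 from there up. The bin medians therefore hold only for the binned probe sets. The SD between bright probe sets of the same gene was 0.74 (4077 probe sets of 1681 genes, each at least 15.4 on the brighter array). It is the only yardstick here and no replicate error. Maf, the targeted gene, had its brightest probe set at 0.219 on the KO array and 47.6 on the wild-type array, a log2 ratio of at most -3.16. Of its other measured probe sets, one had 0.143 in KO and 21.0 in wild type (at most -2.02), those at -0.03 and -0.21 had KO values under the floor, and the only one above the level-adjusted floor on both arrays had 3.25 in KO and 4.96 in wild type, a ratio of 0.07; the position of these probes relative to the deletion is not known here. The ratio of 3′ to 5′ signal for Actb was 6.05 in KO and 13.3 in wild type, so a ratio can depend on where probes lie in a transcript.

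All 10 macrophage markers were measured on at least 1 array, with a summed signal of 716 in KO and 1435 in wild type; after level adjustment 3 were at least 2-fold higher and 1 lower, with a median of 0.38. RNA of markers of other cell types was present too, and which cells it came from was not tested. The summed signal of 9 granulocyte and monocyte markers was 8958 in KO and 16793 in wild type, with 0 higher, 3 lower and a median of -0.58 after level adjustment. Most of the sum came from S100a9 (3812 in KO and 4926 in wild type) and S100a8 (3317 in KO and 4717 in wild type). These 2 genes were named after their values were seen. The summed signal of 7 erythroid markers was 5322 in KO and 8366 in wild type, with 1 higher, 0 lower and a median of 0.25. Most of it came from Hbb-y (4650 in KO and 7061 in wild type). Hepatoblast markers were the one group that was brighter in KO even as deposited. The summed signal of 10 measured genes was 586 in KO and 366 in wild type. After level adjustment 9 of the 10 were past 2-fold in that direction, with a median log2 ratio of 1.70. That count was 3 as deposited, where 1.19% of all genes were higher, and 2 with scaling to the hybridisation controls. It was 3 among the fewer genes with a probe set without an x, s or a suffix. All these marker counts stand against 8.82% of all measured genes higher and 9.4% lower after level adjustment. Alb, encoding serum albumin, was at 136 in KO and 63.8 in wild type. Hepatocytes also express amino acid and stress response genes, and the part of these cells in the results below was not tested. In such bulk samples, fewer cells of a type and less RNA per cell cannot be told apart.

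Of the 22 probe sets, 17 were measured, and all 10 genes had at least 1. The other 5 were below the floor on both arrays. Of the 17, 3 were at least 2-fold higher on the KO array, 13 stayed within 2-fold and 1 was lower by 2-fold or more. The same calls took in 9.18% (higher) and 9.18% (lower) of all 22608 measured probe sets with 1 gene symbol. The 3 higher probe sets belonged to Trib3 and Asns, and the lower one to Psat1. The median over the 17 was -0.05, against 0.02 over all. As deposited the split was 1 higher and 7 lower, where 1.27% of all measured probe sets were higher and 36.6% lower. The median of the 17 as deposited was -0.68, again near the -0.72 of all probe sets.

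**Figure D1:**
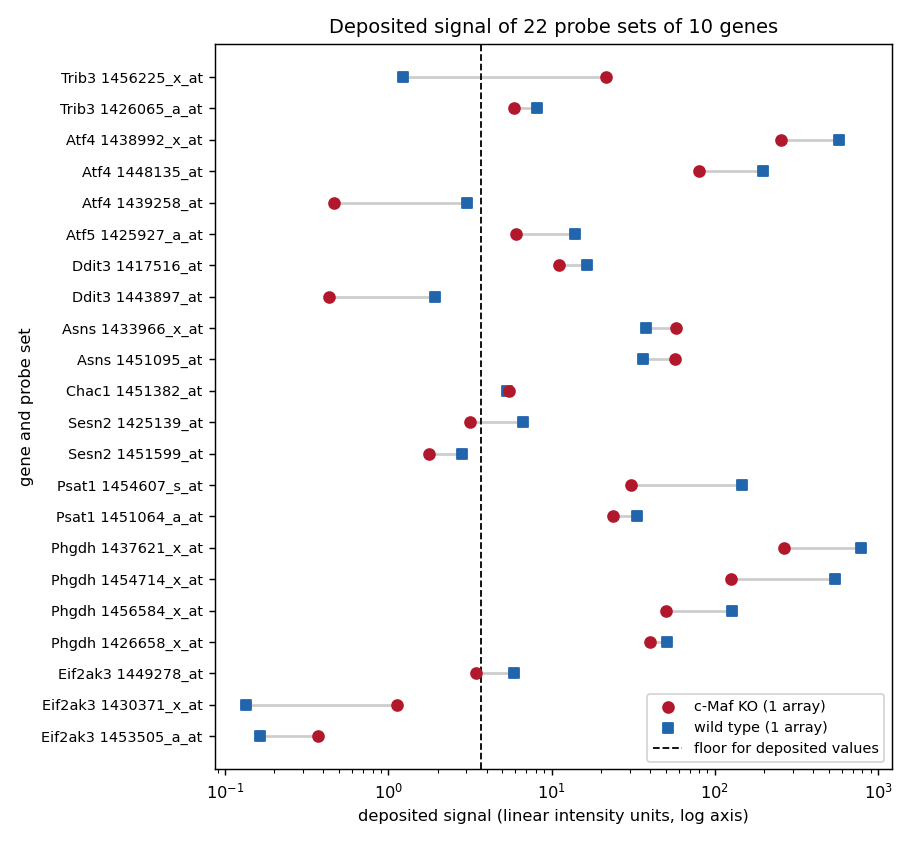
Deposited signal (linear intensity, log axis) of each of the 22 probe sets on the c-Maf KO array (circles) and the wild-type array (squares), with the floor of 3.70 as a dashed line. Trib3 1456225_x_at crosses the floor, at 21.4 in KO and 1.24 in wild type, and both Asns probe sets lie higher in KO.

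Trib3 was represented by a pair of probe sets that differed. The brighter, 1456225_x_at, had a deposited signal of 21.4 on the KO array and 1.24 on the wild-type array. The wild-type value was under the floor, so it was at least 8.97-fold higher in KO after level adjustment and at least 5.79-fold higher as deposited. The other, 1426065_a_at, had 5.87 in KO and 8.15 in wild type, a log2 ratio of 0.33 level-adjusted and -0.47 as deposited, so its direction turned with the scale. It lay in the dimmest signal bin, whose median of 0.48 was above its ratio of 0.33. The pair differed by at least 2.83 log2 units. Among 3344 genes with exactly 2 measured probe sets the median difference was 0.64, and 15 genes, Trib3 included, or 0.449%, differed by that much or more. Because Trib3 was chosen for the large ratio of the brighter probe set, a wide gap was favoured by that choice. The share is therefore only a description. The x suffix marks a probe set of which some probes also match other sequences. Neither Trib3 probe set is free of a suffix, since the a suffix marks probes shared by transcripts of the same gene. The higher value of Trib3 in KO thus rested on 1 probe set.

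Asns, which makes asparagine from aspartate and glutamine and is a classic ATF4 target, was higher in KO on both its probe sets. Probe set 1451095_at, which carries no suffix, had 57.1 in KO and 36.2 in wild type. Probe set 1433966_x_at had 58.0 in KO and 37.6 in wild type. The level-adjusted log2 ratios were 1.82 and 1.79, and the deposited ones 0.66 and 0.63. Both probe sets were above 0 on both scales, and the ratios differed from each other by 0.02. Only 1.0% of all measured probe sets had a ratio as high as the first. The median ratio of its brightness bin was -0.13.

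Chac1 encodes an enzyme that degrades glutathione and is induced downstream of ATF4 and CHOP. Its single probe set had 5.45 in KO and 5.35 in wild type. The deposited signals were nearly equal (log2 ratio 0.03), and the level-adjusted ratio was 0.79, short of 2-fold. This probe set lay in the dimmest bin, whose median was 0.48, and 14.8% of all measured probe sets had a ratio as high.

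The transcription factors of the response were within 2-fold. Atf4 had 256 in KO and 577 in wild type on its brightest probe set, 1438992_x_at, and 80.0 in KO and 196 in wild type on 1448135_at. The level-adjusted log2 ratios were -0.05 and -0.12, close to the middle of all probe sets, while the deposited ratios of -1.17 and -1.29 reflect signals more than 2-fold lower in KO before adjustment. The remaining Atf4 probe set, at 0.464 in KO and 3.03 in wild type, was below the floor on both arrays.

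Ddit3, which encodes CHOP, the bZIP factor of the apoptotic arm of the response and an inducer of Trib3, had 11.1 in KO and 16.6 in wild type on 1417516_at. Its log2 ratio was 0.45 level-adjusted and -0.57 as deposited. A second Ddit3 probe set, at 0.434 in KO and 1.92 in wild type, was below the floor on both. Atf5, an ATF4 relative that is also translated preferentially under stress, had 6.02 in KO and 13.9 in wild type, with log2 ratios of -0.34 level-adjusted and -1.20 as deposited. Neither factor departed from the median of all probe sets by more than the 0.74 SD between bright probe sets of a gene. Atf5, at most 10.6 after level adjustment, was dimmer than the 15.4 required for that SD.

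**Figure D2:**
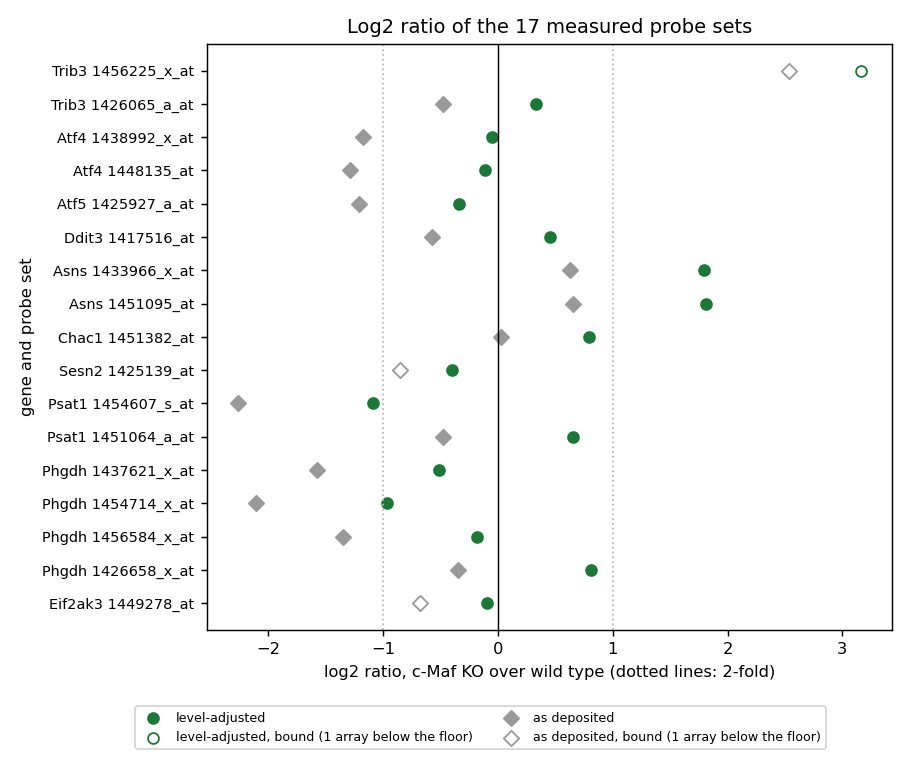
Log2 ratio of c-Maf KO over wild type for each of the 17 measured probe sets, level-adjusted (circles) and as deposited (diamonds), with dotted lines at 2-fold and open symbols for bounds. Asns and 1 Trib3 probe set lie at 1.79 or above after level adjustment, and the 4 Phgdh probe sets spread between -0.97 and 0.81.

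Psat1 and Phgdh, enzymes of serine synthesis from a glycolytic intermediate, had probe sets that went in opposite directions. Psat1 probe set 1454607_s_at had 30.5 in KO and 147 in wild type, a log2 ratio of -1.09, and was the one probe set of the 17 at least 2-fold lower. Psat1 probe set 1451064_a_at had 23.8 in KO and 33.1 in wild type, a log2 ratio of 0.66. As deposited both were lower in KO, with log2 ratios of -2.27 and -0.48. The level-adjusted difference of 1.74 between them was matched or exceeded in 8.19% of genes with 2 measured probe sets.

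Phgdh, the first enzyme of that route, had 4 probe sets, all with an x suffix. The brightest, 1437621_x_at, had 263 in KO and 785 in wild type (log2 ratio -0.51). Probe set 1454714_x_at had 126 in KO and 544 in wild type (-0.97), just inside 2-fold. Probe set 1456584_x_at had 50.1 in KO and 127 in wild type (-0.18). Probe set 1426658_x_at had 40.2 in KO and 51.1 in wild type (0.81). The deposited signals were lower in KO on all 4, with log2 ratios between -2.11 and -0.35. The level-adjusted mean was -0.21 with an SD of 0.76 between the 4 probe sets, so no direction stood clear of their own spread.

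Sesn2, a sestrin that restrains mTORC1 when leucine is short, had 3.14 in KO and 6.70 in wild type on 1425139_at. The log2 ratio was -0.40, and a second Sesn2 probe set was below the floor on both arrays (1.77 in KO and 2.84 in wild type). Eif2ak3 encodes PERK, the eIF2 kinase of the endoplasmic reticulum. Its probe set 1449278_at had 3.43 in KO and 5.91 in wild type, with a log2 ratio of -0.09, and its other 2 probe sets were at most 1.13 on either array. As deposited, the KO values of Sesn2 and Eif2ak3 were under the floor, which makes them at least 1.81-fold and at least 1.60-fold lower before adjustment. Signals this close to the floor carry little information on either gene.

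**Figure D3:**
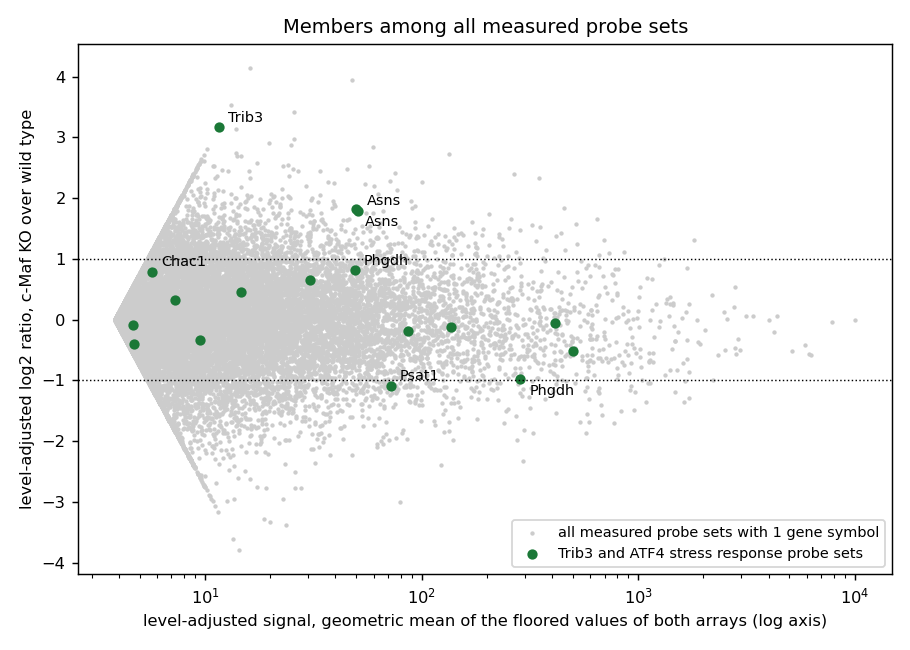
Level-adjusted log2 ratio of c-Maf KO over wild type against level-adjusted signal (geometric mean of the floored values of both arrays, log axis) for 22608 measured probe sets with 1 gene symbol (grey) and the 17 measured probe sets of the Trib3 and ATF4 response genes (green). Names are printed where the ratio is at least 0.75 in size; Trib3 lies above most of the cloud, and most of the others lie inside it.

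The wider ATF4 programme was examined in a list of 35 further targets, of which 31 were measured. In KO, 6 passed 2-fold upwards (19.4%), 4 passed it downwards (12.9%) and 21 passed neither, where 8.82% of the 13290 measured genes, each taken by its brightest probe set, were higher and 9.4% lower. The list median was 0.13, against 0.01 over all genes. The 6 higher genes were dim, with KO signals between 6.08 and 14.8, while the 4 lower ones had wild-type signals between 28.4 and 208. Bin medians were 0.48 for the dimmest binned probe sets and -0.13 for the brightest. Of all measured probe sets, 8.12% under 4 times the floor were at least 2-fold higher, and 11.1% from there up. The part of brightness in the list counts was not tested. Vldlr, a lipoprotein receptor induced through PERK and ATF4, had 14.8 in KO and 4.13 in wild type. Its wild-type value was under the level-adjusted floor, so it was at least 6.04-fold higher. This was its only measured probe set of 6, and it carries the x suffix. Stc2, a secreted glycoprotein induced by endoplasmic reticulum stress, had 10.6 in KO and 5.46 in wild type, a log2 ratio of 1.86, and its other measured probe sets were also above 0, the lowest at 0.73. Ddit4, an inhibitor of mTORC1, had 11.2 in KO and 7.25 in wild type (1.58). Psph, which completes serine synthesis after Phgdh and Psat1, had 9.17 in KO and 7.21 in wild type (1.26). Adm2 and Slc7a11, named after their values were seen, completed the 6. Slc7a11, the cystine transporter, had 6.08 in KO and 3.76 in wild type (at least 2.20-fold higher), but its other measured probe set was at -0.11. As deposited, 1 of the 31 was higher and 12 were lower, against 1.19% and 39.8% of all genes.

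The 4 lower ATF4 targets had functions of several kinds. Slc7a5, the light chain of a leucine transporter, had 4.87 in KO and 28.4 in wild type (log2 ratio -1.67). Slc38a2, a glutamine transporter of the adaptive response to amino acid shortage, had 17.1 in KO and 115 in wild type (-1.61), and its other measured probe sets were also below 0. Cebpb, a C/EBP partner of ATF4, had 24.2 in KO and 208 in wild type (-1.94), but a second, dimmer Cebpb probe set stood at 1.11. Xpot, a tRNA exporter named after its value was seen, was the fourth, with 27.7 in KO and 169 in wild type (-1.44). The highest of its 4 measured probe sets was at 0.10.

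The 10 genes were also set out by promoter motif. The 3 genes that held it, Trib3, Asns and Chac1, had the 3 highest ratios by brightest probe set (at least 3.16, 1.79 and 0.79), and the 7 without it ran between -1.09 and 0.45. That order depended on the probe set and the floor: the dimmest single-gene Phgdh probe set, of a gene without the motif, stood at 0.81, and with the floor at the 65th percentile Chac1 was at 0.24, below the 0.45 of Ddit3. Since Trib3 was chosen for its ratio and the motif was chosen with results known, this is a description. In the ATF4 target list, 9 of 30 genes with a promoter window held the motif. Of the 7 that were measured, 2 were at least 2-fold higher (Vldlr and Slc7a11), 0 lower, and the median was 0.68; of 20 measured genes without it, 4 were higher, 3 lower, and the median was 0.04. Both higher ones were bounds. Jdp2, a bZIP repressor that held the motif, was at -0.86, with a second probe set at 1.03. Herpud1, which also held it, was at 0.81, with a second probe set at -1.21. As deposited, Vldlr and Slc7a11 were above 0. Herpud1, Atf3, Nupr1, Slc1a4 and Jdp2 were below it, where the median of all genes was -0.79. Apart from Vldlr and Jdp2, these motif genes were named after their values were seen. Over all measured genes with a window, 7.85% of 331 with the motif were at least 2-fold higher, and 8.87% of 10370 without it. Across all genes on the arrays, higher genes were no more frequent with the motif than without it.

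**Figure D4:**
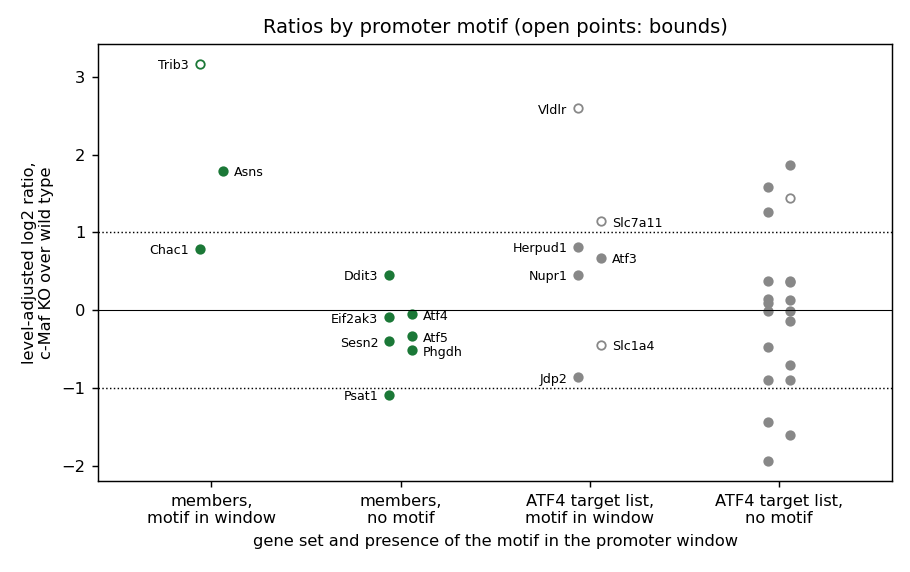
Level-adjusted log2 ratio of c-Maf KO over wild type, by brightest probe set, for the 10 response genes (green) and the measured ATF4 target list genes (grey), split by the presence of TGATGNAA in the promoter window; open points are bounds. The 3 response genes with the motif lie at 0.79 or above, the 7 without it at 0.45 or below.

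Upstream of ATF4, of the 16 measured genes for eIF2 kinases, eIF2 and its exchange factor eIF2B, 2 passed 2-fold upwards and 3 downwards, with a median of -0.28, where 8.82% of all genes were higher and 9.4% lower. The count of 3 was 1 with means over probe sets. Eif2ak2, encoding the double-stranded RNA sensor PKR, had 7.88 in KO and 41.4 in wild type (-1.38), though a second probe set was at 0.10. Eif2ak4, encoding the amino acid sensor GCN2, had 2.22 in KO and 11.8 in wild type, at least 2.36-fold lower, and its second probe set was at -0.08. Eif2ak1, encoding the heme sensor HRI and named after its value was seen, had 21.3 in KO and 27.8 in wild type (0.74 level-adjusted but -0.39 as deposited), and the lowest of its 5 measured probe sets was at -0.95. Among the eIF2B subunit genes, Eif2b1 had 17.1 in KO and 9.52 in wild type (1.86), and Eif2b4 had 16.3 in KO and 88.6 in wild type (-1.31).

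Genes of the other branches of the unfolded protein response had the lowest median of the pathway lists. Of 24 measured genes of the IRE1 and ATF6 branches, 0 were past 2-fold upwards and 6 (25%) downwards, with a median of -0.62, where 9.4% of all genes were lower. Many of these genes are bright, and among the 5717 genes that reached 4 times the floor on either array 12.3% were lower and the median was -0.05. Syvn1, the ubiquitin ligase of endoplasmic reticulum degradation, had 9.76 in KO and 89.1 in wild type (-2.12), and a second probe set was at -1.27. Derl2, of the same degradation pathway, had 5.51 in KO and 26.2 in wild type (-1.35). Dnajb9, a luminal cochaperone and IRE1 target, had 7.10 in KO and 31.4 in wild type (-1.17). The chaperone genes Hsp90b1 (97.2 in KO and 738 in wild type, -1.82) and Canx (53.8 in KO and 315 in wild type, -1.38) were lower too, but each also had a probe set above 0, at 0.46 and 0.74. The sixth was Sel1l (-1.04), named after its value was seen, which also had a probe set at 0.95. The count of 6 lower was 3 with means over probe sets, 4 without suffixed probe sets and 12 with equal medians. No test of the difference between these lists was possible with 1 array per genotype.

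Aminoacyl-tRNA synthetases, many of which are ATF4 targets, had 1 of 19 measured genes past 2-fold upwards and 3 downwards, with a median of -0.01, against 8.82% higher and 9.4% lower among all genes. Sars, which charges serine tRNA, had 57.5 in KO and 64.7 in wild type (1.01, but -0.17 as deposited), and Lars, which charges leucine tRNA, had 15.3 in KO and 87.4 in wild type (-1.39). Vars (-1.45) and Yars (-1.22) were the other lower ones. Of 10 measured serine and one-carbon enzymes, 3 were higher and 0 lower, with a median of 0.24; the 3 became 1 with means over probe sets. Besides Psph these were Shmt1, a cytosolic serine to glycine converter (66.3 in KO and 44.7 in wild type, 1.75), and Mthfd2l (8.0 in KO and 6.64 in wild type, 1.15); other probe sets of Shmt1 and Mthfd2l reached down to 0.06 and 0.07. Together with Psat1 and Phgdh, the serine genes covered both directions.

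Partners of Trib3 itself were mostly within 2-fold by brightest probe set. Its relatives were dim on both arrays, with Trib1 at 3.31 in KO and 2.95 in wild type. Cop1, the ubiquitin ligase recruited by Tribbles proteins, had 76.1 in KO and 127 in wild type (0.46). Akt1 and Akt2, the kinases bound by Trib3, were at 0.28 and 0.29. A further Akt1 probe set had 0.968 in KO, under the floor, and 13.7 in wild type, a ratio of at most -1.44. Another was at -0.06. The second measured Akt2 probe set, also with its KO value under the floor, was at most -0.52. Sqstm1, the autophagy receptor p62, had 33.1 in KO and 25.1 in wild type (1.53) and was the 1 gene of 6 measured that was at least 2-fold higher. Of 12 measured genes for sestrins and mTORC1 control, Ddit4 and Rheb, the activator of mTORC1, were higher; Rheb had 66.7 in KO and 59.4 in wild type (1.35). These counts of 1 of 6 and 2 of 12, like those that follow, stand against 8.82% of all genes higher and 9.4% lower. Among the remaining lists, glutathione enzymes had 0 of 6 higher and 1 lower (Ggct, -1.03, with a second probe set at 1.39), the mitochondrial unfolded protein response 0 of 9 higher and 1 lower (Hspa9, -1.42, with its highest probe set at 0.30), and bZIP partners of ATF4 and CHOP 0 of 13 higher and 1 lower (Cebpb).

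**Figure D5:**
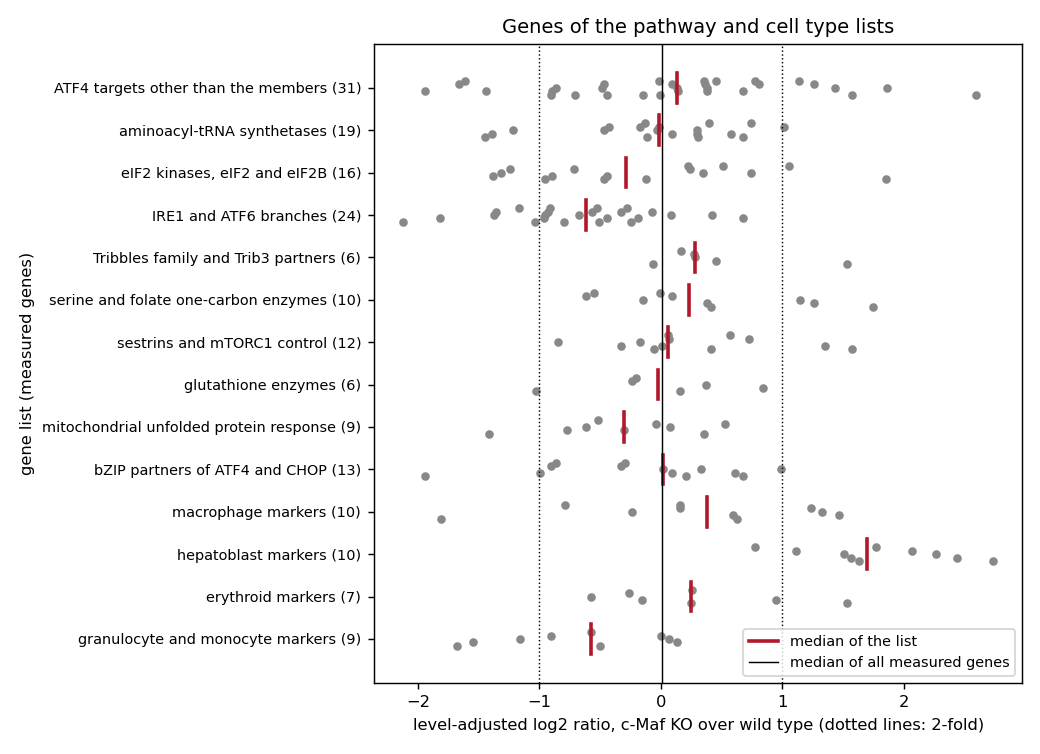
Level-adjusted log2 ratio of c-Maf KO over wild type for each measured gene (grey points, by brightest probe set) in 10 pathway lists and 4 cell type lists, with list medians (red bars), the median of all measured genes (black line) and dotted lines at 2-fold. The IRE1 and ATF6 list sits lowest of the pathway lists at a median of -0.62, the ATF4 targets spread to both sides around 0.13, and the hepatoblast markers lie highest at 1.70.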

How the data were processed

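Total RNA from sorted cells was labelled with biotin and hybridised to 1 GeneChip array per genotype, per the labels' protocols. The authors deposited 1 linear intensity per probe set and array. Their summary method, scaling and filters are not stated in the labels.

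Of 45101 probe sets, 64 were manufacturer's controls. The platform annotation gave a single gene symbol to 34945 of the other 45037, several to 932 and none to 9160; 34754 of these probe sets were matched by Entrez identifier to the GRCm38.p6 gene table. Probe sets with several symbols name no gene here.

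Both arrays were quantile normalized, floored at the 50th percentile, and log2 ratios of KO over wild type were taken. Fold calls used 2-fold. Each gene was represented by its brightest probe set by mean deposited signal. This relative scale assumes equal signal distributions. Calculations used Python 3.11.15, pandas 2.3.3 and numpy 2.4.6. The code for the calls was run on simulated data, scored on bright probe sets with far less noise than the spread between probe sets here. That run does not measure how reliable the calls are on these arrays. Alternatives were 4 other scalings, floors at the 25th and 65th percentiles, the floor as a pseudocount, 1.5- and 3-fold thresholds, means over probe sets, and probe sets without suffix. The members, the motif and the 14 gene lists were chosen with earlier results of these data known. The genes named were all members, Maf, from each list the 5 genes or fewer with the largest absolute ratio, and the 5 genes nearest to Trib3 in signal. Promoter sequences are from RefSeq.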

Additional observations from a re-analysis of the deposited data

How the results depend on the processing

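The count of 3 response probe sets at least 2-fold higher was 1 with values as deposited and 1 with scaling to the hybridisation controls, where the KO array stays dimmer as a whole, and 6 at 1.5-fold. The count of 1 lower was 7 as deposited, 7 with the hybridisation controls, 2 with equal medians, with centred ratios, with the floor at the 25th percentile and at 1.5-fold, and 0 at 3-fold. The shares of all measured probe sets higher and lower were 9.18% and 9.18% on the level-adjusted scale, 1.27% and 36.6% as deposited, 0.771% and 45.6% with the hybridisation controls, 5.03% and 14.9% with equal medians, 12.9% and 8.16% with centred ratios, 19.6% and 19.3% with the floor at the 25th percentile, 21.7% and 21% at 1.5-fold and 1.8% and 2.28% at 3-fold. The median over the 10 genes was -0.90 with the hybridisation controls, where that of all measured probe sets was -0.91. Over the 10 pathway lists, 13 genes were higher and 18 lower. The higher count was 1 as deposited, 1 with the hybridisation controls, 24 at 1.5-fold and 4 at 3-fold. The lower count was 70 as deposited, 86 with the hybridisation controls, 33 with equal medians, 35 at 1.5-fold, 5 at 3-fold and 9 with means over probe sets.

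Under the settings run, Trib3 stayed above 0, between 1.75 (mean over its probe sets) and 5.04 (floor at the 25th percentile), but had no value without suffixed probe sets. Asns ran between 0.38 with the hybridisation controls and 1.82. Atf4, Atf5, Psat1 and Phgdh were below 0 in every setting that gave a value, each by 1 probe set or a mean over probe sets. As deposited and with the hybridisation controls, the median of all probe sets was itself -0.72 and -0.91. Psat1 1451064_a_at was above 0 level-adjusted (0.66), with equal medians (0.19) and with centred ratios (0.39). Phgdh 1426658_x_at was too (0.81, 0.32 and 0.52), while the other Psat1 and Phgdh probe sets were below 0 there. Ddit3 was below 0 in 2 of 10 settings and Chac1 in 1 of 10, and Sesn2 and Eif2ak3 were above 0 in 1 of 9 each. No paired analysis was possible because each genotype has 1 array. Signals near the floor limit Chac1, Sesn2, Eif2ak3 and the dimmer Trib3 probe set.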

Other observations

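A pair of Phgdh probe sets was left out of the comparisons because each is annotated with a second gene. One, shared with Gm6756, had 70.9 in KO and 267 in wild type, a level-adjusted log2 ratio of -0.73. The other, shared with Gm8096, had 13.5 in KO and 22.3 in wild type, a ratio of 0.35. They fell inside the spread of the 4 single-gene Phgdh probe sets.

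By distance of the log2 deposited signals on both arrays, the 5 genes nearest to the brighter Trib3 probe set were Trp53i11 (17 in KO and 1.37 in wild type), Fabp1, a fatty acid binding protein of liver (14.3 in KO and 1.51 in wild type), Ap5s1 (12.2 in KO and 1.59 in wild type), Zbp1, a nucleic acid sensor (13 in KO and 1.81 in wild type), and Icam2, an adhesion molecule (13.9 in KO and 0.772 in wild type). With 2 arrays this likeness rests on 2 values per gene.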
